A study of Mus musculus with 14 samples.

Results

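The genes described here encode enzymes and structural proteins of the intestinal brush border: Mep1a, Mep1b, Dpp4, Anpep, Vil1, Myo1a and Tmigd1. The 7 names were chosen with earlier results of these data known. Every probe set whose deposited gene symbol equals one of the 7 names was then taken, whatever its values. Of the 7 genes, 6 were found, with 7 of the 22626 probe sets tested. Dpp4 has 2 probe sets and the others 1 each, and 0 probe sets carry the symbol Myo1a, which is not analysed here.

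The series profiled total RNA of mouse colorectal tumors and tumor-free colon epithelium on 14 1-colour Affymetrix arrays, all from male mice. The CAC tumors (4 arrays, 1 mouse each) came from wild-type C57BL/6J mice given azoxymethane, a carcinogen, at 10 mg/kg and then 3 cycles of 2.5% dextran sodium sulfate, a colitis-inducing agent, for 7 days with 14 days of recovery. The CAC controls (2 arrays, each a pool of 5 C57BL/6J mice) were purified tumor-free epithelium of the distal colon, and the labels leave unsaid if these mice were treated. The sporadic tumors (5 arrays, 1 mouse each) came from C57BL/6J-ApcMin/+/J mice, which carry a truncating germline allele of the tumor suppressor Apc. The sporadic controls (3 arrays, each a pool of 4 mice) were tumor-free distal epithelium labelled with the same strain, so tumors and controls of the sporadic model share the Apc allele. Tumors were whole tissue and controls were purified epithelium, ages are not given, and all CAC arrays form experimental block 1 and all sporadic arrays block 2. Model and block therefore cannot be told apart, whereas tumors and controls of 1 model share a block.

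Absorptive cells of the gut carry a carpet of microvilli on their luminal face, the brush border. Its membrane holds peptidases and other hydrolases, its actin core is bundled by villin and tied to the membrane by class I myosin, and a coat of cadherins and glycoproteins covers the tips. Colonocytes gain these proteins as they leave the crypt base and mature toward the surface, and several of their genes are bound by the transcription factors CDX2 and HNF4A.

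The start regions of 4 members are shown. Mep1a, Dpp4 and Vil1 fell in the tumors of both models, while Anpep did not fall in either. Anpep read only 5 to 8 in controls, near the lower end of the scale, so a fall could hardly have shown. Mep1b, also called lower in both models, is not shown. Tmigd1, whose start regions also hold matches to the motifs named below, is not shown either. Each region shown runs from 250 bases before to 50 after the RefSeq gene start on GRCm38.p6, 5′ to 3′ on the gene's strand. Mep1a lies at chr17:43502724-43503023 on the minus strand and Dpp4 at chr2:62412182-62412481 on the minus strand. Vil1 lies at chr1:74409134-74409433 on the plus strand and Anpep at chr7:79848161-79848460 on the minus strand. Capitals mark matches, on either strand, to TTTAT (a CDX core), CAAAGT (an HNF4 sequence) or CTTTGA (a TCF/LEF core).
Mep1a: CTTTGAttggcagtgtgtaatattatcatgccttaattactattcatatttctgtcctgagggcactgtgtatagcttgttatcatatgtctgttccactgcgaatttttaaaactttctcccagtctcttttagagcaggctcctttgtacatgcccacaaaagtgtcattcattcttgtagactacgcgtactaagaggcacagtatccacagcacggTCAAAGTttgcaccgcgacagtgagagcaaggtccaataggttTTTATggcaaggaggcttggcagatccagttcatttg
Dpp4: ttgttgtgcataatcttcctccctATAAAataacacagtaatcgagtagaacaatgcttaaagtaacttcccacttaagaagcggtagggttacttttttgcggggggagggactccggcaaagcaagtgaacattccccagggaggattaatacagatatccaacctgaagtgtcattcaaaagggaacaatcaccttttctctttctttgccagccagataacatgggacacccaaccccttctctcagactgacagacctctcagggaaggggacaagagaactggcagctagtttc
Vil1: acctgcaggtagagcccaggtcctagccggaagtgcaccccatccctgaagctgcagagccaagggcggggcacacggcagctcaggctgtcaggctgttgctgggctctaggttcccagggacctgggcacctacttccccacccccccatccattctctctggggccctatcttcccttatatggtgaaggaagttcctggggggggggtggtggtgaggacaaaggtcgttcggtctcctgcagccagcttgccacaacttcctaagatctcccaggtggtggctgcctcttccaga
Anpep: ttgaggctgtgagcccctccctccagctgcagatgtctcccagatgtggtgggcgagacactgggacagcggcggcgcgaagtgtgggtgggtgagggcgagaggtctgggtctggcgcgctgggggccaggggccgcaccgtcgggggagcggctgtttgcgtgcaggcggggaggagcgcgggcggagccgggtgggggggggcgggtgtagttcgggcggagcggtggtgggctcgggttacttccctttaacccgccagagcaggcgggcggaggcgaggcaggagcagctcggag

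The Mep1a region holds TTTAT at +14, CAAAGT at -29 and CTTTGA at -250 and -30, the last of which overlaps the CAAAGT match. The Dpp4 region holds TTTAT once, at -226, and the Vil1 and Anpep regions hold 0 matches to these 3 motifs. Among 32851 RefSeq promoters of the same length, TTTAT occurs in 40%, CTTTGA in 16% and CAAAGT in 14.4%, so such matches are common. The regions also differ in base composition, with 42.3% G and C in Mep1a, 45.3% in Dpp4, 61.7% in Vil1 and 72.3% in Anpep, against a median of 52.7% over all promoters.

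Values are the authors' GCRMA intensities, which are linear, are whole numbers and have no fixed unit. The array medians lay between 15 and 18, and 9200 probe sets averaged under 10, so a value under 10 is near the lower end of the scale and a fold against it depends on that end. Fold changes come from limma on log2 intensity with 4 group means, are given as log2 ± standard error, and passed at a Benjamini-Hochberg adjusted p under 0.05 over all probe sets. In CAC tumors against CAC controls 6 of the 7 member probe sets were lower and 0 higher, beside 25.6% of all probe sets lower and 14.2% higher. In sporadic tumors against sporadic controls 5 were lower and 1 higher, beside 28.2% and 17.8% of all probe sets. The median log2 change over the 7 was -1.49 for CAC and -1.16 for sporadic tumors, while over all probe sets it was -0.05 and -0.04. Every CAC tumor lay below both CAC controls for 6 of the 7, which holds for 29.1% of all probe sets. Every sporadic tumor lay below the 3 sporadic controls for 5 of the 7, which holds for 24.6%. The members were chosen with earlier results of these data known, so these counts and shares are description only.

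**Figure D1:**
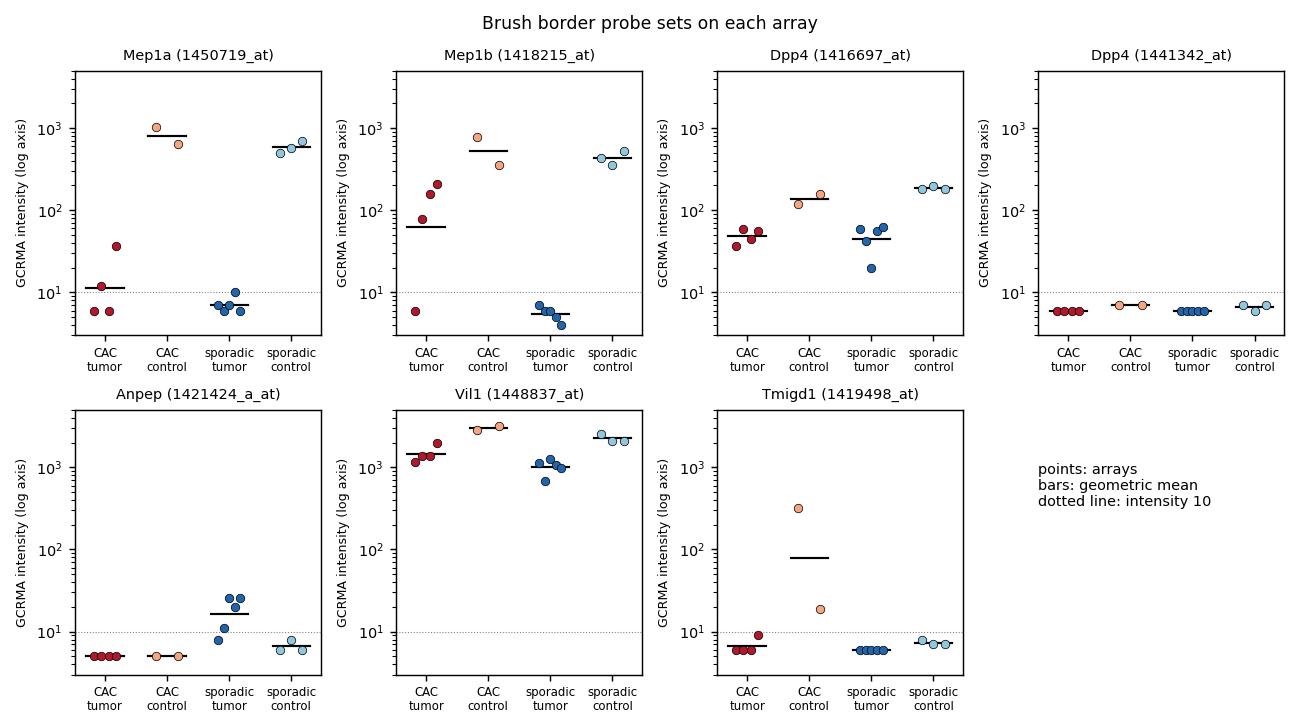
Deposited GCRMA intensity (log axis, no unit) of the 7 member probe sets, one panel each. Points are single arrays, horizontal bars are geometric means, and each tumor group stands left of its control. Mep1a separates 6 to 37 in CAC tumors from 634 and 1033 in CAC controls, whereas Vil1 stays at 689 or above on all arrays.

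Mep1a, which encodes the alpha subunit of meprin, a secreted and membrane-bound metalloprotease of the brush border, fell in both models to near the lower end of the scale. Its intensity was 6, 12, 6 and 37 in CAC tumors 1 to 4, against 1033 and 634 in the CAC controls. In sporadic tumors 1 to 5 it was 7, 6, 7, 10 and 6, against 503, 572 and 695 in the sporadic controls. No tumor of either model overlapped its controls, and 2 of 4 CAC tumors and 4 of 5 sporadic tumors were at 6 or 7. The log2 change was -6.17 ± 0.62 in the CAC model, or 72.0-fold lower (limma adjusted p = 1.91e-05). It was -6.37 ± 0.52 in the sporadic model, or 82.7-fold lower (limma adjusted p = 2.75e-06). The changes of the 2 models differed by 0.20 ± 0.81, with a 95% interval of -1.58 to 1.98 (limma adjusted p = 0.977). The authors' deposited table gives a 70.8-fold lower level in CAC tumors and an 85.0-fold lower level in sporadic tumors. Geometric means were 11.2 in CAC tumors and 809 in CAC controls, and 7.07 in sporadic tumors and 585 in sporadic controls. Neither the tumors nor the controls of the 2 models could be ordered by limma (adjusted p = 0.433 and 0.778).

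Mep1b, the beta subunit of meprin, a membrane protease that sheds other surface proteins and cleaves the mucin MUC2, was near the lower end of the scale in all sporadic tumors and well above it in 3 of the 4 CAC tumors. CAC tumors 1 to 4 measured 6, 79, 158 and 209, against 785 and 357 in the CAC controls. Sporadic tumors 1 to 5 measured 7, 6, 6, 5 and 4, against 433, 356 and 520 in the sporadic controls. All tumors lay below their controls, but 3 of the 4 CAC tumors lay above every sporadic tumor. The log2 change was -3.07 ± 1.12 in the CAC model, or 8.42-fold lower, and passed narrowly (limma adjusted p = 0.0492). That call was lost in 11 of the 14 fits that each left out 1 array, with log2 changes between -3.65 and -1.94. Without CAC control 1 it was -2.50 with an adjusted p of 0.252, and without CAC tumor 1 it was -1.94 with an adjusted p of 0.00667 (limma). In the sporadic model the log2 change was -6.29 ± 0.94, or 78.4-fold lower (limma adjusted p = 0.00027). It stayed past the threshold with any 1 array left out.

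The 2 models were set against each other for Mep1b directly. CAC tumors were 3.52 ± 0.87 higher than sporadic tumors on the log2 scale, 11.4-fold (limma adjusted p = 0.0194), a comparison that crosses experimental blocks. Without CAC tumor 3 or CAC tumor 4 the adjusted p was 0.06 or 0.056. The difference between the tumor changes, each against its own controls, was 3.22 ± 1.46, with a 95% interval of -0.01 to 6.45, and did not pass (limma adjusted p = 0.234). Leaving out CAC tumor 1, the tumor at 6, gave 4.35 with an adjusted p of 0.000626. The SD of log2 intensity was 2.34 over the 4 CAC tumors and 0.80 over the 2 CAC controls, and 0.31 over the 5 sporadic tumors and 0.27 over the 3 sporadic controls. Geometric means were 62.9 in CAC tumors and 529 in CAC controls, and 5.50 in sporadic tumors and 431 in sporadic controls, with no difference detected between the controls (limma adjusted p = 1).

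Within CAC tumors 2, 3 and 4 the remaining shares of the meprin transcripts were unlike. CAC tumor 3 held Mep1a at 0.741% of the control geometric mean and Mep1b at 29.8%. CAC tumor 2 held Mep1a at 1.48% and Mep1b at 14.9%, and CAC tumor 4 held them at 4.57% and 39.5%. CAC tumor 1 held them at 0.741% and 1.13%. In the 5 sporadic tumors Mep1a was at 1.03% to 1.71% and Mep1b at 0.928% to 1.62% of the control mean. Both transcripts read 10 or less in every sporadic tumor and 6 in CAC tumor 1, and Mep1a also read 6 in CAC tumor 3. Shares from such readings depend on the lower end of the scale. Where both transcripts were that low, their shares cannot be compared.

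**Figure D2:**
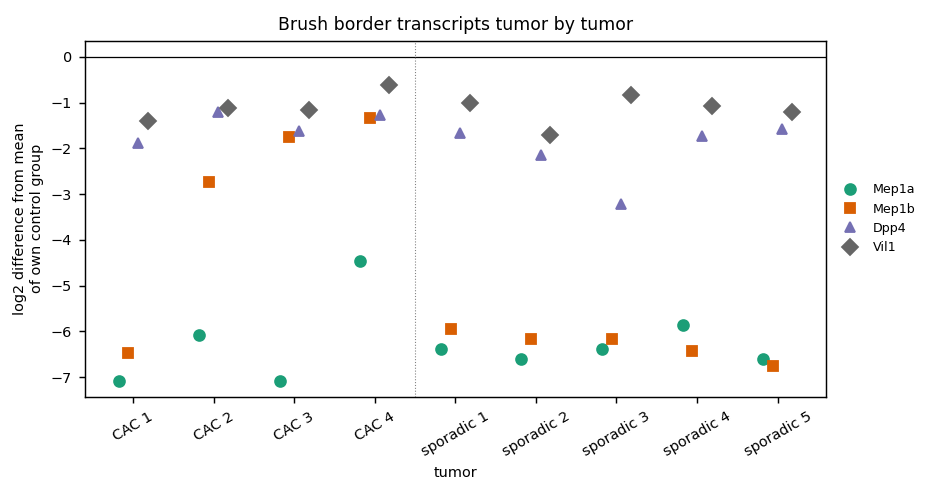
Log2 difference of Mep1a, Mep1b, Dpp4 (brighter probe set) and Vil1 in each tumor from the mean log2 value of the controls of its own model (vertical axis), with CAC tumors 1 to 4 on the left and sporadic tumors 1 to 5 on the right. Points of 1 tumor are set slightly apart sideways. In CAC tumors 2, 3 and 4 Mep1b sits at -2.74, -1.74 and -1.34, while Mep1a sits at -4.45 or lower in all tumors.

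Dpp4, dipeptidyl peptidase 4 (CD26), which trims dipeptides from the ends of incretins and chemokines, fell in both models by much less. On the brighter of its 2 probe sets CAC tumors 1 to 4 measured 37, 59, 44 and 56, against 118 and 156 in the CAC controls. Sporadic tumors 1 to 5 measured 59, 42, 20, 56 and 62, against 179, 199 and 180 in the sporadic controls. No tumor reached a control of its model, and sporadic tumor 3 was the lowest array. The log2 change was -1.49 ± 0.40 in CAC tumors, or 2.82-fold lower (limma adjusted p = 0.0116). It was -2.07 ± 0.34 in sporadic tumors, or 4.19-fold lower (limma adjusted p = 0.00049). Without CAC control 2 the CAC change was -1.29 and missed the threshold (limma adjusted p = 0.0969). The difference between the models was 0.57 ± 0.52, with a 95% interval of -0.58 to 1.73 (limma adjusted p = 0.577). Geometric means were 48.2 in CAC tumors and 136 in CAC controls, and 44.4 in sporadic tumors and 186 in sporadic controls. Limma separated neither the tumors (adjusted p = 0.987) nor the controls (adjusted p = 0.572) of the 2 models.

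The second, dimmer Dpp4 probe set read 6 in all 9 tumors, against 7 in both CAC controls and 7, 6 and 7 in the sporadic controls. Its steps of 1 unit passed the test in both models, with log2 changes of -0.22 ± 0.05 (limma adjusted p = 0.00375) and -0.15 ± 0.04 (limma adjusted p = 0.0122). Added quantile normalization moved those p-values to 0.41 and 0.0593. Without this probe set the member counts were 5 lower in the CAC model and 4 lower and 1 higher in the sporadic model.

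Anpep, aminopeptidase N (CD13), an enzyme of the small-intestinal brush border that is also made by myeloid cells and fibroblasts, was the 1 member that rose, and only the sporadic comparison passed. It read 5 on all 4 CAC tumors, against 5 and 5 in the CAC controls. Sporadic tumors 1 to 5 read 8, 11, 26, 20 and 26, against 6, 8 and 6 in the sporadic controls. Sporadic tumor 1 overlapped the highest control, and the other 4 tumors lay above all 3. The log2 change was 1.31 ± 0.35, or 2.48-fold higher, in sporadic tumors (limma adjusted p = 0.0111), and 0.00 ± 0.42 in CAC tumors (limma adjusted p = 1). Fitted on the sporadic groups alone, the sporadic change had an adjusted p of 0.0586 (limma). The difference between the tumor changes was -1.31 ± 0.55, with a 95% interval of -2.53 to -0.10 before adjustment, and did not pass (limma adjusted p = 0.205). Without sporadic tumor 1 it was -1.57 with an adjusted p of 0.0411 (limma). CAC tumors were lower than sporadic tumors by limma (log2 -1.71 ± 0.33, adjusted p = 0.00521), and all 4 CAC tumors lay below the 5 sporadic ones, as for 7.24% of all probe sets. These intensities lie at the lower end of the scale, and myeloid and fibroblast marker sums were higher in both tumor groups, as given further on. Their part in the Anpep result was not tested.

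Vil1, villin, the protein that bundles and severs actin in the microvillus core, stayed bright on every array and fell in both models. CAC tumors 1 to 4 measured 1154, 1386, 1359 and 1966, against 2874 and 3188 in the CAC controls. Sporadic tumors 1 to 5 measured 1124, 689, 1266, 1069 and 981, against 2580, 2120 and 2074 in the sporadic controls. The groups did not overlap in either model, and each tumor kept between 30.7% and 65% of its control mean. The log2 change was -1.07 ± 0.24 in CAC tumors, or 2.11-fold lower (limma adjusted p = 0.00446). It was -1.16 ± 0.20 in sporadic tumors, or 2.23-fold lower (limma adjusted p = 0.00086). The difference between the models was 0.09 ± 0.32, with a 95% interval of -0.62 to 0.79 (limma adjusted p = 0.966). Geometric means were 1438 in CAC tumors and 3027 in CAC controls, and 1006 in sporadic tumors and 2247 in sporadic controls. Between the models neither the tumors nor the controls passed (limma adjusted p = 0.0976 for tumors and 0.32 for controls).

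Tmigd1, a membrane protein with immunoglobulin domains that is placed at the microvilli and at cell contacts of epithelia, was high in only 1 of the 2 pools of CAC control epithelium. CAC tumors 1 to 4 read 6, 6, 6 and 9, against 320 and 19 in CAC controls 1 and 2. Sporadic tumors read 6 on all 5 arrays, against 8, 7 and 7 in the sporadic controls. The 12 arrays other than the CAC controls thus lay between 6 and 9. The log2 change in the CAC model was -3.55 ± 0.78 (limma adjusted p = 0.00379). It was -1.52 without CAC control 1 and -5.59 without CAC control 2, so its size rests on which pool is kept. Each of those fits leaves 1 CAC control and so drops the spread between the pools. In a fit of the CAC groups alone the CAC change did not pass (limma adjusted p = 0.0967). The sporadic change of -0.29 ± 0.66 did not pass when the spread was shared with the CAC groups (limma adjusted p = 0.825). Fitted on the sporadic groups alone it passed (limma adjusted p = 0.0025), and no sporadic tumor overlapped a control. Both rest on steps of a few units near the lower end of the scale. Every sporadic tumor lay below the sporadic controls for 24.6% of all probe sets. The SD of log2 intensity was 2.88 over the CAC controls. CAC controls were 3.41 ± 0.82 higher than sporadic controls on the log2 scale (limma adjusted p = 0.0202), the 1 member probe set of 7 that passed between controls, where 7.61% of all probe sets passed as higher. That value was 1.38 without CAC control 1 and 5.45 without CAC control 2. The call was lost without sporadic control 2 (adjusted p = 0.0555), with the controls fitted alone (adjusted p = 0.301) and with the replicate block (adjusted p = 0.073).

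**Figure D3:**
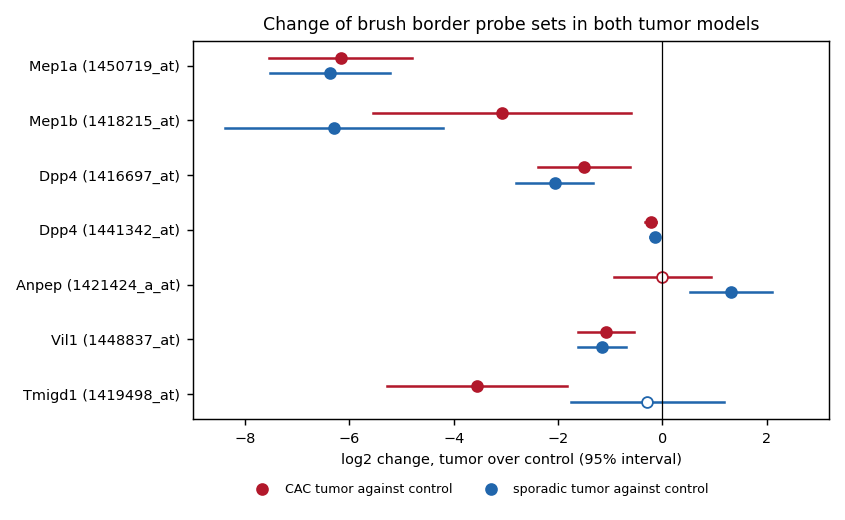
Log2 change of each member probe set, tumor over control, with its 95% interval from limma, CAC above sporadic in each pair. Filled points passed at an adjusted p under 0.05 and open points did not. Mep1a lies below -6 in both models, Vil1 near -1 in both, and Anpep lies above 0 in the sporadic model alone.

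In the direct test of the difference between the models, 0 of the 7 member probe sets passed, where 7.69% of all probe sets did, and 2 had an unadjusted limma p under 0.05 (Anpep and Tmigd1). Between CAC and sporadic tumors 2 of the 7 passed, Mep1b higher and Anpep lower, where 7.88% of all probe sets were higher and 7.58% lower. The CAC tumors also differed among themselves. CAC tumor 4 had the highest value of the 4 for Mep1a, Mep1b, Vil1 and Tmigd1, and CAC tumor 1 had the lowest for Mep1b, Dpp4 and Vil1 and shared the lowest for Mep1a. CAC tumor 1 also stood apart in some cell type markers, and the examples that follow were picked after their values were seen. The collagen gene Col3a1 measured 5077, 1812, 1685 and 2317 in CAC tumors 1 to 4, and S100a8, a neutrophil protein gene, measured 6193, 961, 1019 and 102. Epcam measured 9602, 12105, 10870 and 11503 in the same tumors. What part cell makeup had in the member values of CAC tumor 1 was not tested.

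The tumors were whole tissue, so the cell makeup was read beside these values. In bulk samples fewer cells of a type and less RNA per cell cannot be told apart. The epithelial surface protein gene Epcam averaged 10980 in CAC tumors and 11898 in CAC controls (log2 -0.12 ± 0.09, limma adjusted p = 0.356). It averaged 8427 in sporadic tumors and 7976 in sporadic controls (log2 0.08 ± 0.08, limma adjusted p = 0.452). Epcam was 1 of the 3 brightest of 13 general epithelial genes, and the other 2 were called lower in both models. Epcam alone therefore does not stand for the list. Of the 13 genes, 5 were lower and 2 higher in CAC tumors and 7 lower and 3 higher in sporadic tumors. Their median log2 changes were -0.33 and -0.43. Over all genes 25.6% were lower and 16% higher in CAC tumors, and 29.3% and 19.6% in sporadic tumors. The sum of those 13 intensities was 56086 to 64728 in CAC tumors, 70993 to 72393 in CAC controls, 49517 to 59096 in sporadic tumors and 65947 to 66997 in sporadic controls.

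Fibroblast and myeloid markers were much brighter in tumors. Fewer smooth muscle, endothelial and lymphocyte genes passed as higher, though their sums were also higher in every tumor than in its controls. Over all genes 16% passed as higher in CAC tumors and 19.6% in sporadic tumors, and 25.6% and 29.3% as lower. The 15 fibroblast and matrix genes summed to 6433 to 14771 in CAC tumors and 250 to 360 in CAC controls, and 12 of 15 passed as higher. They summed to 8902 to 17474 in sporadic tumors and 119 to 129 in sporadic controls, with 13 of 15 higher. The 12 myeloid genes summed to 4576 to 15794 in CAC tumors and 374 to 442 in CAC controls (10 higher), and to 3397 to 8235 in sporadic tumors and 365 to 435 in sporadic controls (11 higher). Smooth muscle genes passed as higher for 2 and 3 of 9, and endothelial genes for 4 and 5 of 10, in the CAC and sporadic models. The smooth muscle genes summed to 646 to 1685 in CAC tumors and 155 to 186 in CAC controls. In the sporadic model they summed to 592 to 1416 in tumors and 177 to 208 in controls. The endothelial genes summed to 335 to 716 in CAC tumors and 117 to 147 in CAC controls. In the sporadic model they summed to 263 to 725 in tumors and 81 to 111 in controls. The 10 lymphocyte genes summed to 403 to 2365 in CAC tumors and 79 to 99 in CAC controls, and to 78 to 291 in sporadic tumors and 66 to 70 in sporadic controls. Single lymphocyte genes were dim, with 7 of 10 under 10 on every CAC tumor. Of the 10, 4 were lower and 1 higher in CAC tumors and 1 lower and 2 higher in sporadic tumors. The median log2 change over the lymphocyte genes was -0.32 in CAC and -0.06 in sporadic tumors. Only 1 of them reached a mean of 32 in any group, so the raised lymphocyte sums rest mainly on that gene. Under 10 on every array of a group were 2 of the 15 fibroblast genes in CAC tumors and 6 in CAC controls, and 1 in sporadic tumors and 10 in sporadic controls. The log2 ratio of 3′ to 5′ actin probe sets, a measure of RNA quality, was 0.74 to 0.83 in CAC tumors and 0.90 to 0.98 in CAC controls, and 0.96 to 1.27 in sporadic tumors and 0.86 to 1.28 in sporadic controls.

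The mean log2 value of the 13 epithelial genes was 11.0 to 11.2 in CAC tumors and 11.1 to 11.2 in CAC controls, and 11.0 to 11.3 in sporadic tumors and 11.1 in all sporadic controls. Within that mean the genes moved both ways, with 5 of the 13 called lower and 2 higher in CAC tumors. In sporadic tumors 7 were called lower and 3 higher. Subtracting the mean of the 13 genes from every array moved the member changes little. Mep1a was then at -6.13 and Vil1 at -1.03 in CAC tumors, and they were at -6.41 and -1.20 in sporadic tumors. The dimmer Dpp4 probe set lost both its calls under that scaling (limma adjusted p = 0.24 and 0.129). What part the share of epithelial cells had in the member changes was not tested.

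Other brush border genes were read in the same way from 3 lists of 61 genes, of which 47 had a probe set. In CAC tumors 24 were lower and 5 higher, with a median log2 change of -0.47, beside 25.6% of all 13095 genes lower and 16% higher. Without CAC control 1 the CAC counts were 16 lower and 3 higher. In sporadic tumors 29 were lower and 6 higher, with a median of -0.32, beside 29.3% of all genes lower and 19.6% higher. These lists, like that of transcription factors further on, were chosen with earlier results of these data known. Their counts are description only.

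The other hydrolases of the brush border, 14 of 21 measured, were mostly dim, and only 3 reached a mean of 32 in any group. In CAC tumors 5 were lower and 0 higher, beside 25.6% of all genes lower and 16% higher. All 5 were dim, and 0 of the 3 brighter hydrolases were called. Some rested on steps of 1 unit, as for the lactase gene Lct (an example chosen after its values were seen), which read 5 in all 4 CAC tumors, against 6 in both CAC controls. In sporadic tumors 10 were lower and 0 higher, beside 29.3% and 19.6%, and the 3 brighter ones were among the 10. Ace, the peptidase that makes angiotensin II, measured 47, 45, 47 and 46 in CAC tumors, against 58 and 52 in CAC controls. It measured 50, 54, 49, 45 and 47 in sporadic tumors, against 142, 106 and 140 in sporadic controls. The sporadic controls stood above all other arrays, while the tumors of both models lay close together. The log2 change was -0.25 ± 0.11 in CAC tumors (limma adjusted p = 0.0947) and -1.39 ± 0.09 in sporadic tumors (limma adjusted p = 4.71e-07), and the difference of 1.14 ± 0.14 passed (limma adjusted p = 0.00027). Nt5e (CD73), which makes adenosine from AMP, fell by 1.85 ± 0.40 on the log2 scale in sporadic tumors (limma adjusted p = 0.00335), and its CAC value of -0.84 ± 0.48 did not pass (limma adjusted p = 0.197). The difference between the models of 1.00 ± 0.63 did not pass either (limma adjusted p = 0.39).

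Genes of the microvillus core and its anchoring, 21 of 23 measured, were more often lower than higher. In CAC tumors 12 were lower and 3 higher, beside 25.6% of all genes lower and 16% higher. In sporadic tumors 12 were lower and 4 higher, beside 29.3% and 19.6%. The counts of higher genes thus lay near the share over all genes. In the difference between the models 0 of 21 passed, beside 7.69% of all probe sets. Slc9a3r1, the scaffold that ties ezrin to membrane transporters, measured 399, 349, 385 and 453 in CAC tumors, against 2460 and 2144 in CAC controls. It measured 250, 380, 400, 345 and 359 in sporadic tumors, against 957, 1348 and 1267 in sporadic controls. Its tumors and controls did not overlap, and the log2 changes were -2.54 ± 0.19 and -1.78 ± 0.16 (limma adjusted p = 1.65e-06 and 6.5e-06). Eps8l3, a member of the actin-regulating Eps8 family, fell by 1.85 ± 0.25 and 1.78 ± 0.21 on the log2 scale (limma adjusted p = 0.000186 and 5.66e-05).

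Villin's relative Vill ran opposite to Vil1. Vill measured 154, 49, 50 and 53 in CAC tumors, against 24 and 30 in CAC controls. It measured 84, 80, 122, 69 and 73 in sporadic tumors, against 17, 16 and 17 in sporadic controls. Every tumor lay above its controls, and the log2 change was 1.32 ± 0.41 in CAC tumors and 2.33 ± 0.35 in sporadic tumors (limma adjusted p = 0.0261 and 0.000272). The CAC call was lost without CAC control 1 or CAC control 2 (adjusted p = 0.15 and 0.0709). Tmod3, a tropomodulin that caps the pointed ends of actin filaments, also rose, by log2 1.66 ± 0.20 and 2.36 ± 0.17 (limma adjusted p = 7.82e-05 and 9.72e-07).

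**Figure D4:**
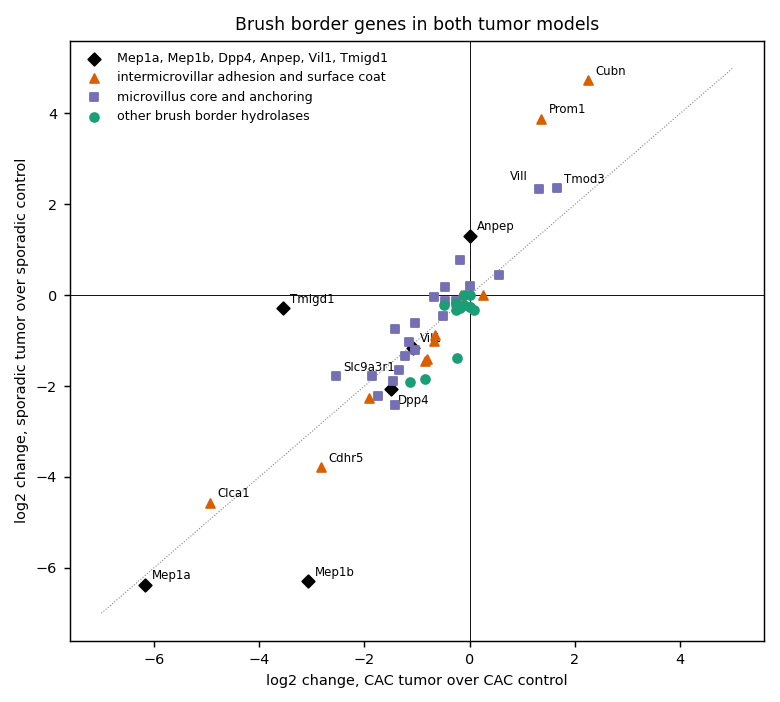
Log2 change in CAC tumors over CAC controls (horizontal axis) against that in sporadic tumors over sporadic controls (vertical axis) for the 6 measured members and the other brush border genes reported here, 1 point per gene, with a dotted line of equal change. Most points lie below 0 on both axes, Vill, Tmod3, Prom1 and Cubn lie above 0 on both, and Mep1b and Tmigd1 lie well off the line.

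Among genes of the adhesion links between microvilli and of the surface coat, 12 of 17 measured, 7 were lower and 2 higher in each model. Over all genes 25.6% were lower and 16% higher in CAC tumors, and 29.3% and 19.6% in sporadic tumors. The counts of higher genes lay near those shares. Cdhr5, a protocadherin that links microvillus tips (listed as Mucdhl), measured 64, 255, 393 and 483 in CAC tumors, against 1664 and 1683 in CAC controls. In sporadic tumors it measured 100, 97, 160, 228 and 93, against 1720, 1640 and 1914 in sporadic controls. The log2 changes were -2.83 ± 0.68 and -3.79 ± 0.57 (limma adjusted p = 0.00638 and 0.000291). As for Mep1b, CAC tumor 1 was the lowest and CAC tumor 4 the highest of the CAC tumors. Ush1c, the harmonin scaffold of the same links, fell by 1.91 ± 0.40 and 2.26 ± 0.34 on the log2 scale (limma adjusted p = 0.0033 and 0.000271). Clca1 (listed as Clca3), a mucus component secreted by goblet cells, had log2 changes of -4.93 ± 1.73 and -4.57 ± 1.46 (limma adjusted p = 0.0423 and 0.0246), calls that were lost in 11 and 4 of the 14 fits that each left out 1 array.

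The 2 genes of that list that rose were Prom1 and Cubn. Prom1, prominin-1 (CD133), a pentaspan protein of microvilli and plasma membrane protrusions that also marks crypt progenitors, measured 1982, 2503, 2619 and 2385 in CAC tumors, against 1294 and 654 in CAC controls. It measured 2498, 1271, 2298, 1619 and 1655 in sporadic tumors, against 152, 129 and 95 in sporadic controls. The tumors of the 2 models overlapped while the CAC controls lay above the sporadic controls. Its log2 changes were 1.36 ± 0.32 and 3.88 ± 0.27 (limma adjusted p = 0.00585 and 7.49e-07), and the difference of -2.52 ± 0.42 passed (limma adjusted p = 0.00276). Without CAC control 2 the CAC change was 0.87 with an adjusted p of 0.097. Cubn, cubilin, the receptor for the vitamin B12 carrier, measured 26, 73, 31 and 92 in CAC tumors, against 8 and 13 in CAC controls. It measured 259, 138, 144, 144 and 230 in sporadic tumors, against 7, 6 and 7 in sporadic controls. Its log2 changes were 2.24 ± 0.50 and 4.73 ± 0.42 (limma adjusted p = 0.00391 and 5.38e-06), and with such controls they depend on the lower end of the scale. With only the CAC groups fitted the CAC call was lost (limma adjusted p = 0.0713). The Cubn difference of -2.49 ± 0.65 (adjusted p = 0.0423) was lost in 11 of 14 fits that left out 1 array, with values between -2.84 and -2.14.

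Of 17 transcription factors known from enterocytes, 15 were measured, of which 8 were lower and 2 higher in CAC tumors, beside 25.6% of all genes lower and 16% higher. In sporadic tumors 9 were lower and 2 higher, beside 29.3% and 19.6%. Hnf4a, a nuclear receptor that drives enterocyte genes, measured 726, 650, 717 and 1139 in CAC tumors, against 2954 and 2441 in CAC controls. It measured 475, 284, 565, 658 and 625 in sporadic tumors, against 2086, 2001 and 1877 in sporadic controls. No tumor overlapped a control, and the log2 changes were -1.77 ± 0.32 and -1.99 ± 0.27 (limma adjusted p = 0.00123 and 0.000126). Klf4, a factor of differentiated colonocytes, fell by 3.00 ± 0.33 and 2.23 ± 0.28 on the log2 scale (limma adjusted p = 4.28e-05 and 7.82e-05).

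The caudal homeobox genes were separate cases. Cdx1 measured 279, 107, 112 and 170 in CAC tumors, against 603 and 772 in CAC controls, and 170, 66, 159, 200 and 180 in sporadic tumors, against 1489, 1611 and 1497 in sporadic controls. It fell by 2.14 ± 0.46 and 3.40 ± 0.39 on the log2 scale (limma adjusted p = 0.00375 and 4.02e-05). Cdx2 read 9, 14, 11 and 24 in CAC tumors, against 56 and 35 in CAC controls, and 8, 10, 8, 9 and 10 in sporadic tumors, against 11, 11 and 12 in sporadic controls. It passed in CAC tumors (log2 -1.71 ± 0.32, limma adjusted p = 0.00172) and not in sporadic tumors (log2 -0.34 ± 0.27, limma adjusted p = 0.358). The difference of -1.37 ± 0.42 did not pass (limma adjusted p = 0.0846). The sporadic controls, at 11 and 12, lay little above the lower end of the scale, which left little room for a fall there. With only the groups compared in the fit, the CAC change missed the threshold (adjusted p = 0.0592) and the sporadic change passed (adjusted p = 0.031). The difference passed with quantile normalization (adjusted p = 0.0381), with 16 added before log2 (adjusted p = 0.0343) and without CAC tumor 4 (adjusted p = 0.00464). The 2 factors called higher in each model were Gata5 and Prdm1. Gata5 changed by 1.96 ± 0.62 and 2.09 ± 0.52 (limma adjusted p = 0.0265 and 0.00724), and its CAC call was lost without CAC tumor 1, CAC tumor 2 or CAC control 2 (adjusted p = 0.0566, 0.0586 and 0.237). Prdm1 (Blimp-1), a repressor known for holding back adult enterocyte genes in the fetal mouse gut, changed by 1.60 ± 0.34 and 2.01 ± 0.28 (limma adjusted p = 0.00328 and 0.000176). Tumors were whole tissue and controls purified epithelium, and which cells of the tumors held the Prdm1 transcript was not tested.

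For each member the 3 genes with the nearest pattern were taken from 6643 genes with a mean of at least 32, by the root mean square difference of log2 values over the 14 arrays after each gene's own mean was removed. The arrays are the same ones, so these are descriptions of the pattern. Nearest to Mep1a were Sult1d1 (0.28 log2 units), a sulfotransferase, Abat (0.36), which breaks down the transmitter GABA, and Cyp2s1 (0.38), a cytochrome P450. Sult1d1 had geometric means of 14.2 in CAC tumors, 775 in CAC controls, 7.58 in sporadic tumors and 636 in sporadic controls. Abat stood at 12.7, 1479, 7.97 and 963 in the same groups and Cyp2s1 at 8.82, 543, 7.47 and 539.

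Nearest to Mep1b were BC018285 (0.74), Sult1b1 (0.84), another sulfotransferase, and Abhd11os (0.88, listed as 2010001M06Rik). Sult1b1 averaged 109 in CAC tumors, 1350 in CAC controls, 27.7 in sporadic tumors and 1356 in sporadic controls, with its lowest mean in sporadic tumors as for Mep1b. Nearest to Vil1 were Hcfc1r1 (0.17), Sri (0.18), the calcium-binding protein sorcin, and Chmp3 (0.18, listed as Vps24), a subunit of the membrane-cutting ESCRT-III complex. Nearest to Dpp4 (brighter probe set) were Ebpl (0.35), Got1 (0.36), cytosolic aspartate aminotransferase, and Sirt3 (0.39), a mitochondrial deacetylase. For Tmigd1 the genes near it included Stk10 (0.89) and Gpr137b (0.91). These distances, and those of 0.74 to 0.88 for Mep1b, were larger than for the other members, so the likeness is looser for both. Nearest to Anpep were Aldoc (0.37), a glycolytic aldolase, Prrc2a (0.38, listed as Bat2) and Mylk (0.38), myosin light chain kinase.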

How the data were processed

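Affymetrix arrays had been hybridized with biotin-labelled cRNA of each sample, per the labels' protocols. The deposited intensity values are the authors' GCRMA output on a linear scale, per the submitters' processing notes. Probe-level files were not used here. Beside the intensities the deposited table holds the authors' fold (an absolute ratio) and p-value for tumors over controls, named so per the file headers. Intensities ran from 2 to 31599. The number of arrays per group limits the precision, and detection calls were not used.

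Leaving out 64 control probe sets left 22626, which were taken to log2 with no offset. Group means of all 14 arrays were fitted with limma 3.58.1 in R 4.3.3 (lmFit, eBayes, 10 residual and 0.543 prior degrees of freedom). P-values were adjusted by Benjamini-Hochberg over all probe sets, and errors after ± are standard errors of the contrast. A probe set was called at an adjusted p under 0.05. For tests on lists each gene was taken at its probe set with the largest mean. The fit was tested on simulated data. Replicates are separate mice or pools of mice, per the labels.

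Members were all probe sets with 1 of the 7 symbols. Named list genes were called genes with a group mean of at least 32, at most 6 a list by size of change, plus every transcription factor. From the cell type lists up to 3 bright genes could be named, and 3 nearest genes were named per member. A few genes that these rules pick are not reported here. The members and lists were chosen with earlier results of these data known. Start regions are RefSeq sequences of GRCm38.p6, and a start region was found for each of the 4 genes printed. The files name no genome build, so probe sets were given no coordinates. Alternatives covered offset, normalization, moderation, filter, threshold, probe set choice, epithelial scaling, samples fitted, replicate block and leaving out each array.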

Additional observations from a re-analysis of the deposited data

Results flagged for a closer look

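Several single arrays stood apart from the rest of their group, by the gap to the nearest array over the range of the group. Dixon's criterion was applied to 74 groups of 4 or 5 tumors and marked 7, and chance marks about 1 in 20. Among the members it marked Tmigd1 in CAC tumor 4, which read 9 where the other CAC tumors read 6. In the CAC tumors it also marked Vill in tumor 1, at 154, and the transcription factor Hnf4g in tumor 1, at 5. In the sporadic tumors it marked Nt5e in tumor 2, at 20, Tmod3 in tumor 3, at 1243, Cdx1 in tumor 2, at 66, and Maf in tumor 4, at 6. Steps of a few units near the lower end of the scale decided the marks for Tmigd1, Hnf4g and Maf.

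The tumor change differed between the models by the test of the difference itself for 3 list genes named here and for 0 of the 7 member probe sets. The difference, CAC minus sporadic on the log2 scale, was 1.14 for Ace (limma adjusted p = 0.00027). It was -2.49 for Cubn (limma adjusted p = 0.0423) and -2.52 for Prom1 (limma adjusted p = 0.00276). The models lie in different experimental blocks, so the model and the block cannot be told apart in these differences.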

How the results depend on the processing

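No log2 change of a member reversed under any alternative while past the threshold. Over the member changes, 304 results of the alternatives other than leaving out an array kept their direction and side of the threshold, 23 fell below it and 1 rose past it, and with 1 array left out the numbers were 469, 17 and 4. The member count between CAC and sporadic tumors was 2 and became 1 at an adjusted p under 0.01, with a mean intensity of at least 32 (4 member probe sets tested), with only the groups compared and with the replicate block. The count between controls was 1 and became 0 under the same 4 settings. The replicate numbers do not pair the arrays: deviations of same-numbered tumors and controls correlated at -0.03 and -0.04 in the CAC model and at 0.06, 0.04 and -0.08 in the sporadic model, and 1 of 3 sporadic tumors correlated best with its own number. With the replicate block the member counts were 5 in the CAC model, 5 in the sporadic model and 0 for the difference, and the Mep1b change in CAC tumors was -3.67 (limma adjusted p = 0.0706). With 1 array left out, the counts ranged from 4 to 6 in the CAC model, 5 to 6 in the sporadic model, 0 to 1 for the difference, 1 to 2 between tumors and 0 to 1 between controls. The count of other brush border genes ranged from 19 to 28 in the CAC model and 29 to 35 in the sporadic model, and that of transcription factors from 7 to 10 and 11 to 11. The count of 19 was without CAC control 1. The CAC controls number only 2 arrays, and the lower end of the scale limits Anpep, Tmigd1 and the second Dpp4 probe set. It also limits dim transcription factors such as Cdx2 and Gata5, and Cubn, whose controls were dim.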
